A study of Mus musculus with 2 samples.

Results

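The genes described here encode the machinery that carries proteins between the endoplasmic reticulum and the Golgi: the coat complexes COPI and COPII, the Arf GTPases, the p24 cargo receptors, 4 SNAREs, and the tethering complexes TRAPP and COG. They were chosen by gene symbol alone, and 62 of the 10403 genes with values in the deposited table matched. Of the 62 genes, 61 reached 1 FPKM in either library and entered the comparison with all 9032 such genes, while Trappc9 was below that level in both, at 0.493 and 0.965 FPKM. Expression was deposited by the authors as FPKM, fragment numbers divided by transcript length and by all mapped fragments, so that levels of different genes can be compared.

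The RNA came from peritoneal macrophages of mice, collected 3 days after elicitation with an agent that the labels call ThG and not activated further. There were 2 samples with 1 library each, 1 from mice labelled ECM1-sufficient (WT in its title) and 1 from mice labelled ECM1-deficient (KO), here called the sufficient and the deficient library. Both titles also carry the mark lps-. ECM1 is a secreted glycoprotein of the extracellular matrix, and how it was made deficient, the strain, age and sex of the mice and whether animals were pooled are not stated in the sources used here. With 1 library per genotype no test is possible, no difference has a replicate check, and genotype cannot be told apart from any other way in which the libraries differ.

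COPII vesicles bud from exit sites of the endoplasmic reticulum when the GTPase Sar1 recruits the cargo-binding inner coat of Sec23 and Sec24 and then the outer cage of Sec13 and Sec31. COPI vesicles, coated by coatomer that Arf GTPases recruit, return escaped proteins and receptors from the Golgi to the endoplasmic reticulum and move within the Golgi stack. Tethers capture the arriving vesicles and SNAREs fuse them. In macrophages this route delivers secreted cytokines, lysosomal hydrolases and surface receptors.

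Ecm1 was at 5.63 FPKM in the sufficient library and 1.02 FPKM in the deficient library, the direction of the labels. All 10 macrophage markers on the list used had values and summed to 7953 FPKM in the sufficient and 7141 FPKM in the deficient library. In the deficient library 9 had more FPKM and 1 had less, while 90.5% of the 9032 genes compared had more. Against the median gene, a scale explained below, 4 of the 10 markers stood above and 6 below, while 54.3% of all genes stood above. Cd68 was at 401 and 689 FPKM, Itgam at 32.6 and 54.5, and Fcgr1 at 3.69 and 17.4 FPKM. Tyrobp was nearly level, at 1386 and 1399 FPKM. The marker with less was Lyz2, at 2774 FPKM in the first library and 5.44 FPKM in the second. Of markers of other cells, 3 of 7 B cell genes had values and summed to 3.67 and 9.52 FPKM, 6 of 8 mesothelial and fibroblast genes summed to 36.8 and 64.8 FPKM, 2 of 8 neutrophil genes to 6.40 and 7.71 FPKM, and 3 of 7 eosinophil and mast cell genes to 1.47 and 3.09 FPKM, with Tpsb2 listed at 0 in the sufficient library. No T or NK cell gene of the list was among the values used. The part of such cells in the differences below was not tested, and in bulk RNA fewer cells of a type and less RNA per cell cannot be told apart.

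Most transport genes had more FPKM in the deficient library, as most genes did. The difference of a gene is given throughout on the log2(FPKM + 1) scale, deficient minus sufficient, and a gene is called higher or lower where this difference was 1 or more, or -1 or less, a 2-fold step on that scale. Of the 61 genes, 9 were higher (14.8%), 3 were lower (4.92%) and 49 were within 2-fold, a term that always refers to FPKM + 1, whereas folds given for single genes are plain FPKM ratios. Over all 9032 genes, 14.8% were higher and 2.17% were lower, so the share of higher transport genes equalled the background. A difference above 0 was held by 56 of the 61 (91.8%), against 90.5% of all genes, and the median was 0.72 for the transport genes and 0.61 for all genes. Their summed FPKM was 904 in the sufficient and 1288 in the deficient library, 1.42 times as much, while the sum over the whole table was 1.37 times as much.

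Because of this common shift, each difference is also given against the median gene, that is after division of the FPKM by the median ratio of 1.73 between the libraries, a shift of 0.79 on the log2 scale. On that scale 0 transport genes were higher and 3 (4.92%) were lower, against 2.45% and 4.77% of all genes. The share of lower transport genes was thus near the background on this scale. Of the transport genes 35 stood above and 26 below the median gene, while 54.3% of all genes stood above it. The 3 lower genes were the same on both scales: Ykt6, Arf3 and Tmed2. They belong to 3 different groups, the SNAREs, the Arf GTPases and the p24 receptors, and every other member of those groups had more FPKM in the deficient library.

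**Figure D1:**
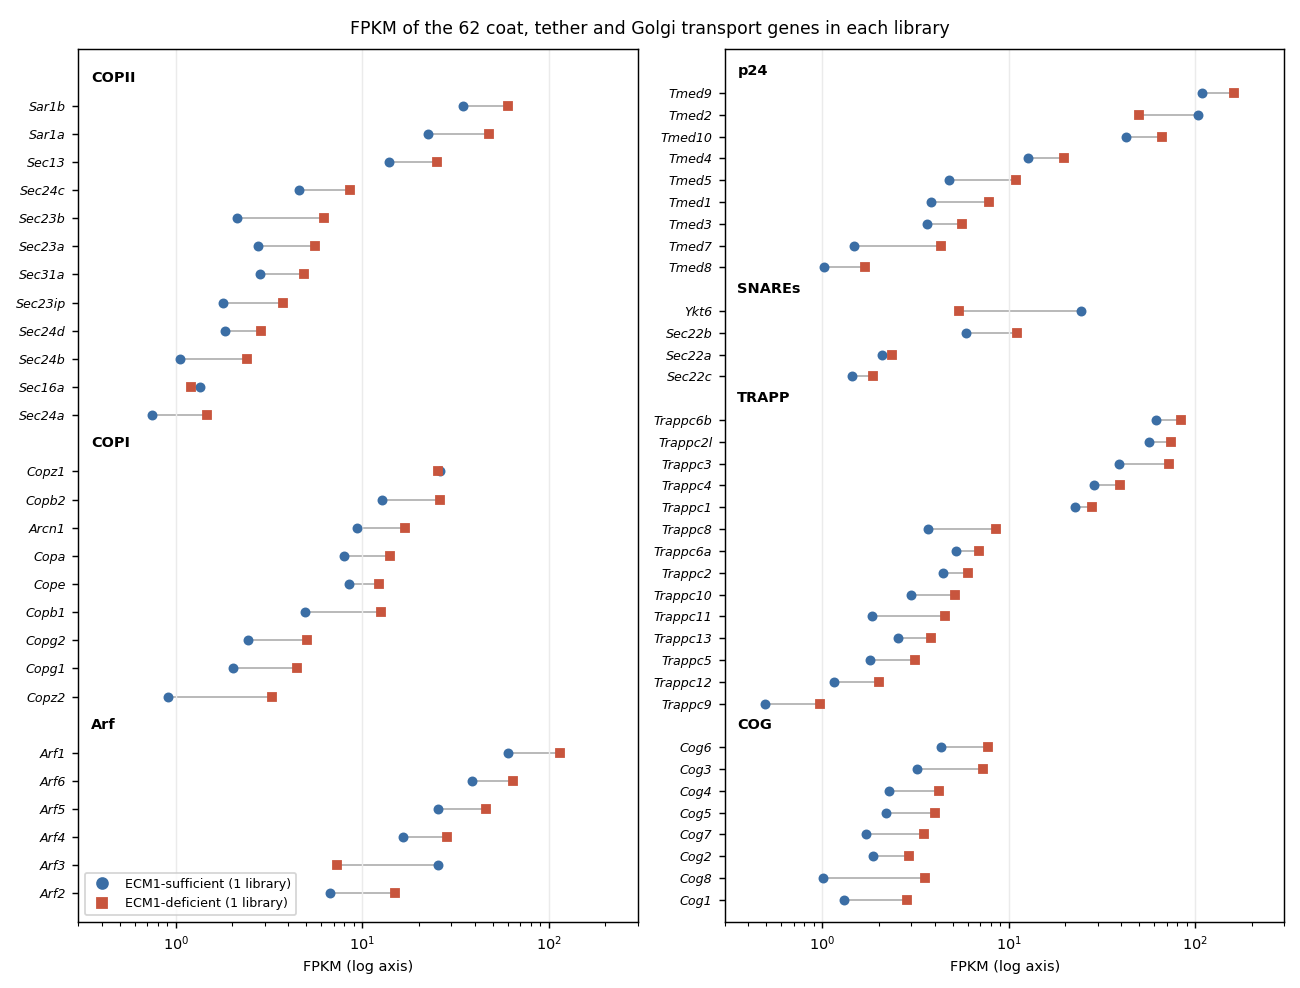
FPKM of each of the 62 genes on a log axis, grouped by complex and ordered by summed FPKM, in the sufficient library (circles) and the deficient library (squares), with 1 library each and no error. The squares lie to the right for 57 genes and to the left for 5, namely Ykt6, Arf3, Tmed2, Sec16a and Copz1.

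The median differences of the complexes were ordered from COPI at 0.80, Arf at 0.79 and COPII at 0.77 through COG at 0.72 and the p24 receptors at 0.60 to TRAPP at 0.45 and the 4 SNAREs at 0.17. This order depended on the added constant. With 0.1 added in place of 1, COPI at 1.01 was followed by COG at 0.93, COPII at 0.89 and Arf at 0.82. With 5 added, Arf at 0.70 was followed by p24 at 0.53 and COPI at 0.48. The SNAREs were lowest in both cases, at 0.26 and 0.07. Against the median gene the medians were 0.19 for COPI, 0.13 for COG, 0.10 for COPII, 0.03 for Arf, -0.12 for p24, -0.15 for TRAPP and -0.34 for the SNAREs. The last 3 therefore changed sign with the scale, and with FPKM rescaled to equal sums the p24 and TRAPP medians were above 0, at 0.17 and 0.11, and that of the SNAREs was -0.12. Except for the SNAREs, the medians of the complexes as deposited lay between 0.37 and 0.86, the 25th and 75th percentiles of all genes.

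**Figure D2:**
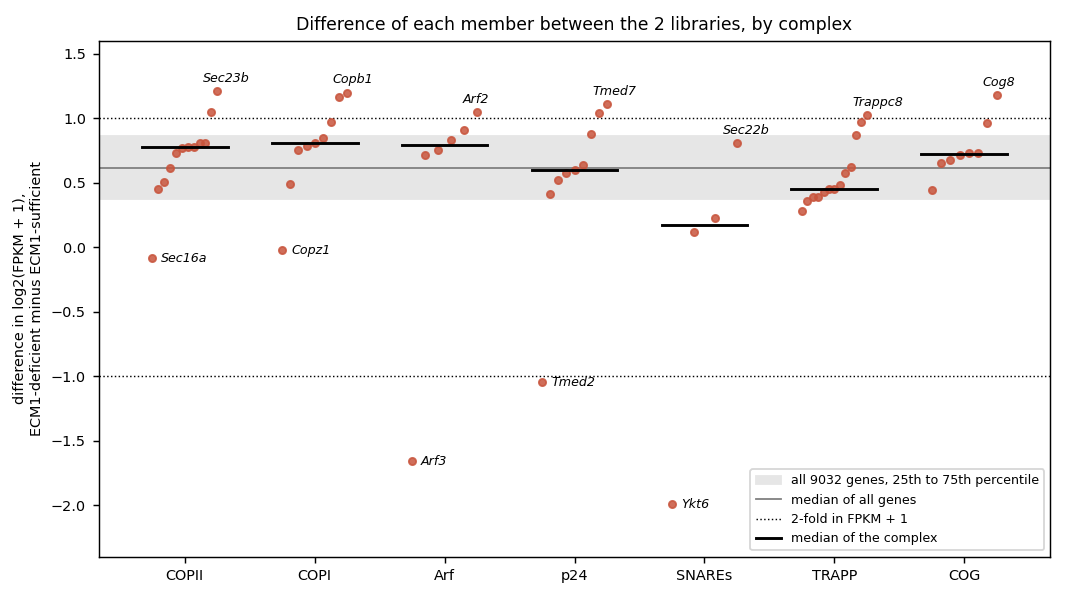
Difference in log2(FPKM + 1), deficient minus sufficient, of the 61 transport genes at 1 FPKM or more, 1 point per gene, with the median of each complex (black bars), the median of all 9032 genes (grey line) and their 25th to 75th percentile (band). Ykt6, Arf3 and Tmed2 lie below the dotted line at -1, apart from the other members of their groups.

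Of 12 COPII genes, 2 were higher, Sar1a and Sec23b, 0 were lower and 10 were within 2-fold. The share higher was 16.7%, near the 14.8% of all genes, of which 2.17% were lower. The GTPase that starts the coat was higher in both of its forms in FPKM. Sar1a was at 22.5 FPKM in the sufficient and 47.4 FPKM in the deficient library, 2.11-fold more, and was called higher. Sar1b was at 34.7 and 60.1 FPKM, 1.73-fold more, a difference of 0.78 and 0.01 against the median gene, so its level moved with the bulk of genes. Sar1b gave 60.7% of the Sar1 FPKM in the first library and 55.9% in the second.

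In the inner coat, Sec23b had the highest difference of the 61 genes as deposited, 1.21. Against the median gene it was at 0.60, under Cog8 and Copz2, each at 0.67. Sec23b was at 2.12 FPKM in the sufficient and 6.21 FPKM in the deficient library, 2.93-fold more. As deposited, 581 of all genes had a higher difference. Its paralogue Sec23a was at 2.75 and 5.57 FPKM, 2.03-fold more. The order of the pair was thus opposite in the 2 libraries: Sec23b gave 43.6% of the Sec23 FPKM in the sufficient library and 52.7% in the deficient library.

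The Sec24 proteins select cargo, and Sec24c was the most abundant of the 4 by FPKM, at 4.56 and 8.54. Its share of the Sec24 FPKM was nearly level, at 55.8% and 56.0%. Sec24d went from 22.3% to 18.7%, at 1.82 and 2.85 FPKM, and Sec24b from 12.8% to 15.7%, at 1.05 and 2.39 FPKM. Sec24a was the least abundant, at 0.747 and 1.47 FPKM.

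Of the outer cage, Sec13, which also serves in the nuclear pore, was at 13.9 and 25.1 FPKM, and Sec31a at 2.82 and 4.83 FPKM. Sec23ip, a partner of Sec23, was at 1.78 and 3.74 FPKM. Sec16a, the scaffold of the exit sites, was the only COPII gene with less FPKM in the deficient library, at 1.35 and 1.21 FPKM, a difference of -0.09 and -0.53 against the median gene. It has the longest transcript of the 62 genes, 8797 bases, and was weakly expressed in both libraries. Sec16b and Sec31b were not among the values analysed here.

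Of the 9 coatomer genes, 2 were higher, Copb1 and Copz2, 0 were lower and 7 were within 2-fold. The share higher was 22.2%, against 14.8% of all genes, of which 2.17% were lower. Copb1, which encodes the beta subunit, was at 4.93 FPKM in the sufficient and 12.6 FPKM in the deficient library, 2.56-fold more. Copb2, the beta-prime subunit, was at 12.7 and 26.0 FPKM, second to Copz1 in the sufficient library and above it in the deficient library. Its difference of 0.97 was just short of 2-fold, whereas Trappc8, at 1.02, was just past it.

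Copa, Arcn1 and the Copg genes lay close together. Copa was 1.77-fold, Arcn1, the delta subunit, 1.80-fold, Copg2 2.05-fold and Copg1 2.20-fold higher in FPKM. Of the gamma subunits Copg1 gave 45.1% and 46.9% of the summed FPKM, so the balance of the pair was close in the 2 libraries. Cope, the epsilon subunit, had a lower difference than these genes, 0.49, or -0.23 against the median gene, at 8.49 and 12.3 FPKM. Arcn1 has 2 processed pseudogenes with at least 95% identity over 1539 bases or more, so its reads could have been split between copies.

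The zeta subunit was the exception. Copz1 was at 25.9 FPKM in the sufficient and 25.4 FPKM in the deficient library, a difference of -0.03, or -0.78 against the median gene. Without Copz1 the summed coatomer FPKM was 48.9 and 94.6, 1.94 times as much, and the share of Copz1 in the whole coatomer sum was 34.6% and 21.2%. Its paralogue Copz2 was at 0.907 and 3.27 FPKM, 3.60-fold more, and supplied 3.38% and 11.4% of the zeta FPKM. The 2 zeta genes together were nearly level, at 26.8 and 28.7 FPKM.

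Of the 6 Arf genes, 1 was higher (16.7%, near the 14.8% of all genes) and 1 was lower (16.7%, against 2.17%). Arf1, the main Golgi Arf, was the most abundant, at 60.6 FPKM in the sufficient and 114 FPKM in the deficient library. Arf2 was at 6.69 and 14.9 FPKM, 2.22-fold more, and was called higher, Arf4 was at 16.4 and 28.3 FPKM, and Arf5 was at 25.5 and 46.2 FPKM. Arf6, which acts at the plasma membrane and endosomes, was at 38.7 and 64.2 FPKM. Against the median gene these genes lay between -0.05 for Arf6 and 0.33 for Arf2.

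Arf3, a close relative of Arf1 that works at the trans-Golgi and recycling endosomes, went the other way. It lies on the minus strand of chromosome 15 from 98737621 to 98763214 (GRCm38) and was at 25.2 FPKM in the sufficient and 7.30 FPKM in the deficient library, 3.46-fold lower. Its difference of -1.66 was undercut by 93 of the 9032 genes and was -2.38 against the median gene. Within a library, where no scaling enters, Arf3 had 0.417 times the FPKM of Arf1 in the sufficient and 0.0638 times in the deficient library. Its share of the Arf FPKM was 14.6% and 2.65%. Neither an exon of another gene in GENCODE M21 overlapping Arf3 nor a copy with 95% identity over 300 bases was found.

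The p24 receptors are small membrane proteins of the early secretory pathway that work as oligomers and bind both coats. Of the 9 genes grouped with them here by the Tmed symbol, 2 were higher and 1 was lower. These shares were 22.2% and 11.1%, against 14.8% and 2.17% of all genes. Tmed9, of the alpha class, and Tmed2, the sole member of the beta class, had the highest levels in the sufficient library, at 109 and 104 FPKM. In the deficient library Tmed9 was at 162 FPKM and Tmed2 at 49.6 FPKM, 2.09-fold lower. Tmed2 lies on the plus strand of chromosome 5 from 124540695 to 124550506. Its difference was -1.05, below which lay 187 of all genes, and -1.82 against the median gene.

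Tmed10, of the delta class, which forms oligomers with Tmed2, was at 42.3 and 66.3 FPKM. The FPKM of Tmed2 was 2.45 times that of Tmed10 in the sufficient library and 0.749 times in the deficient library, whereas that of Tmed9 was 2.57 and 2.44 times that of Tmed10. The share of Tmed2 in the p24 sum was 36.8% and 15.1%. Tmed2 has a processed pseudogene, Gm10698, identical over 604 of the 2074 bases of its transcript, and a second, Gm7318, at 96.7% identity over 600 bases, and Tmed10 has one at 99.4% identity over 660 bases. How the authors assigned reads shared by such copies is not given in the sources used here, so the values of these genes are uncertain.

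The receptors of the gamma class had lower levels. Tmed7 was at 1.48 and 4.34 FPKM, 2.94-fold more, and Tmed5 at 4.80 and 10.9 FPKM, 2.27-fold more, and both were called higher. Tmed1 was at 3.80 and 7.82 FPKM and Tmed3 at 3.62 and 5.64 FPKM, differences of 0.88 and 0.52. Tmed3 gave 26.4% of the gamma FPKM in the sufficient and 19.6% in the deficient library. Tmed7 shares 838 exon bases with Ticam2 on the same strand, and its longest protein-coding transcript has 1436 bases. The split of reads between these genes, and so the call of Tmed7 by itself, is uncertain. The summed FPKM of that pair was 5.49 and 13.4, 2.43 times as much.

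The remaining genes of this group were within 2-fold. Tmed4, of the alpha class, was at 12.7 and 19.7 FPKM and gave 10.5% and 10.8% of the alpha sum with Tmed9. Tmed8, placed in the group by its symbol alone and given no p24 class here, was at 1.03 and 1.70 FPKM. Tmed6 and Tmed11 were not among the values analysed here.

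Ykt6 had the lowest difference of the 61 genes. It encodes a SNARE that is anchored by lipid rather than by a membrane span and takes part in fusion at the Golgi, at endosomes and of autophagosomes. The gene lies on the plus strand of chromosome 11 from 5955693 to 5967780, has 7 exons, and was at 24.4 FPKM in the sufficient and 5.38 FPKM in the deficient library, 4.53-fold lower. The difference was -1.99, and -2.70 against the median gene, and 72 of all genes had a lower one. No exon overlap and no near-identical copy was found for Ykt6, whereas 20 of the 62 genes share exon bases with another gene, most of them on the opposite strand.

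The Sec22 SNAREs did not share this. Sec22b, the member known to act between the endoplasmic reticulum and the Golgi, was at 5.88 and 11.0 FPKM, 1.88-fold more. Sec22a was at 2.09 and 2.36 FPKM and Sec22c at 1.45 and 1.87 FPKM, at -0.42 and -0.26 against the median gene. Within a library, Ykt6 had 4.15 times the FPKM of Sec22b in the sufficient and 0.488 times in the deficient library. Of the summed FPKM of the 4 SNAREs, Ykt6 gave 72.1% and 26.1%.

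**Figure D3:**
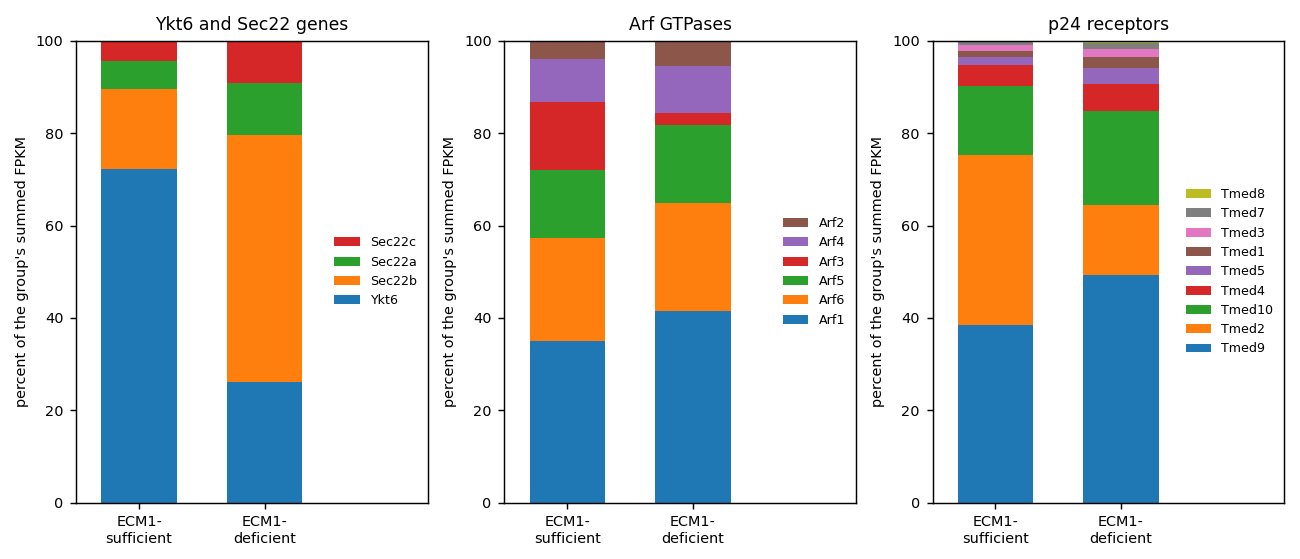
Percent of the summed FPKM contributed by each gene within the 4 SNAREs, the 6 Arf GTPases and the 9 genes grouped as p24 receptors, in 1 sufficient and 1 deficient library. The share of Ykt6 was 72.1% and 26.1%, that of Arf3 14.6% and 2.65%, and that of Tmed2 36.8% and 15.1%.

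TRAPP activates Rab1, the GTPase that prepares membranes for tethering. All 13 TRAPP genes compared had more FPKM in the deficient library, as 90.5% of all genes did. However, 9 of the 13 lay under the median difference of all genes. The 8 genes of the small core shared by all TRAPP complexes had a median of 0.41, or -0.31 against the median gene. Of these core genes 2 stood above and 6 below the median gene, while 54.3% of all genes stood above it. The core included the most abundant TRAPP genes: Trappc6b was at 61.7 and 83.5 FPKM, Trappc2l at 56.4 and 74.1, Trappc4 at 28.7 and 39.6 and Trappc1 at 22.7 and 27.8 FPKM. Trappc3 stood out among them, at 39.2 and 72.4 FPKM, a difference of 0.87. The paralogues Trappc6a and Trappc6b kept their balance, with Trappc6b at 92.3% of their sum in both libraries.

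The subunits that mark TRAPPII and TRAPPIII had a higher median difference than the core, but the groups overlapped. Trappc8, of TRAPPIII, was at 3.69 and 8.53 FPKM, 2.31-fold more and called higher, and Trappc11 was at 1.85 and 4.57 FPKM, 2.48-fold more. Trappc10, of TRAPPII, was at 2.98 and 5.11 FPKM, Trappc12 at 1.16 and 2.02 and Trappc13 at 2.53 and 3.83 FPKM. The 5 of these genes compared had a median of 0.62, or 0.01 against the median gene, and Trappc12 and Trappc13, at 0.48 and 0.45, lay below the core genes Trappc3 and Trappc5, at 0.87 and 0.57. This split was made after the values were seen, and transcript length moves with it: the median was 1296 bases in the core and 4332 bases in the other group. Over all genes the median difference against the median gene was -0.34 for transcripts up to 1000 bases, 0.00 from there to 2000 bases, 0.11 up to 4000 bases, 0.04 up to 6000 bases and -0.03 for longer ones. The part of length in the TRAPP differences was not tested. The core genes Trappc2 at 6.06, Trappc6a at 6.93 and Trappc5 at 3.15 FPKM in the deficient library were within 2-fold of their levels of 4.41, 5.19 and 1.80 FPKM in the other. Trappc2 and Trappc6b each have a processed pseudogene with at least 95% identity over 300 bases or more, so their values are uncertain too.

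COG, a tether of 8 subunits, keeps glycosylation enzymes in place by catching vesicles that recycle them within the Golgi. All 8 COG genes had more FPKM in the deficient library, as 90.5% of all genes did. Of the 8, 1 was called higher (12.5%, near the 14.8% of all genes). Above the median gene lay 7 of 8, against 54.3% of all genes. Lobe A, Cog1 to Cog4, summed to 8.70 and 17.3 FPKM and lobe B, Cog5 to Cog8, to 9.24 and 18.8 FPKM, so the lobes were near each other in both libraries. Cog6 was the most abundant, at 4.31 and 7.72 FPKM. Cog3 was at 3.23 and 7.26 FPKM, a difference of 0.96, and Cog2, at 1.88 and 2.92 FPKM, had the lowest, 0.45. The others, Cog1, Cog4, Cog5 and Cog7, had differences from 0.65 to 0.73.

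Cog8 was the COG gene called higher, at 1.01 and 3.54 FPKM, 3.52-fold more. It overlaps the gene Pdf, a mitochondrial peptide deformylase, on the same strand over 1306 exon bases, 28.2% of its own. Pdf was at 2.34 FPKM in the sufficient and 0.308 FPKM in the deficient library. Together the overlapping genes were at 3.35 and 3.85 FPKM, 1.15 times as much, so the call of Cog8 is uncertain.

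The promoters of 54 of the 62 genes were in the RefSeq table for GRCm38.p6, as windows of 300 bases that reach 250 bases before the start and 50 after. The letters TGACGTGG, known as a binding element of the unfolded protein response factors ATF6 and XBP1, were searched on both strands, so as TGACGTGG or CCACGTCA. They were in windows of 5 of the 54 genes (9.26%), against 1.14% of 6999 genes compared here and 0.714% of all 27025 genes in that table. The longer endoplasmic reticulum stress element of these factors, CCAAT and CCACG separated by 9 bases, was in 0 of 54 windows and in 0.137% of all genes' windows. A match describes letters only and does not show binding. The 5 genes come from COPI, COPII and the Arf family, and 180 bases before to 20 after the start are shown on the gene's strand, with the matched letters in capitals.
Arf1 (chr11:59228143-59228342, minus strand): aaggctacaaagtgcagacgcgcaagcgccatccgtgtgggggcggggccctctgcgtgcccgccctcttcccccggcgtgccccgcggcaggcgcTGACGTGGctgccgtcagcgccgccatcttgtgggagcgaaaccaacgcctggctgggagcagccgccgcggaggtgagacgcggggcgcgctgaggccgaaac
Copb1 (chr7:114254661-114254860, minus strand): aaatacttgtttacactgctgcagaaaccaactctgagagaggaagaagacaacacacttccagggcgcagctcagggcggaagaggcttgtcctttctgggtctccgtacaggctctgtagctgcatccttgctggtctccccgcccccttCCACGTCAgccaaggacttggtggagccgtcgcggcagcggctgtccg
Copb2 (chr9:98563551-98563750, plus strand): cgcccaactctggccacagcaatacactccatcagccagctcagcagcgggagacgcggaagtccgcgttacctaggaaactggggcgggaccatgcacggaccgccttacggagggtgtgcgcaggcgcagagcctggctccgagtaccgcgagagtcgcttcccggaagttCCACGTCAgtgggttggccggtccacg
Sec23a (chr12:59011998-59012197, minus strand): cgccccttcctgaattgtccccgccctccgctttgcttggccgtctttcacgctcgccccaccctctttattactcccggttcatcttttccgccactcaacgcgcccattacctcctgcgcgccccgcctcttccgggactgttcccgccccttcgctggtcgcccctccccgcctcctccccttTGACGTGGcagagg
Sec24d (chr3:123267316-123267515, plus strand): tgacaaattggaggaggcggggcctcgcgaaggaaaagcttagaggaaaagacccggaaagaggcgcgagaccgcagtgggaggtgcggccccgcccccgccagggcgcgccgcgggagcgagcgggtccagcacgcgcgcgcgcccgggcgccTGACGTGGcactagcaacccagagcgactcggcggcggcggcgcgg

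The 5 genes with TGACGTGG were not alike in their differences. Copb1, at 1.2, was the only one called higher. Copb2 was at 0.97, Arf1 at 0.91, Sec23a at 0.81 and Sec24d at 0.45, which is below the median of all genes.

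The promoters of Ykt6 and Arf3, the genes with the lowest differences, are shown in the same way, with capitals for CCGGAAG or its reverse complement CTTCCGG, the core of sites bound by ETS factors. These letters were in windows of 22 of the 54 genes (40.7%), including Arf3 and Ykt6, against 23% of the genes compared here. Tmed2 had no window in the table.
Ykt6 (chr11:5955578-5955777, plus strand): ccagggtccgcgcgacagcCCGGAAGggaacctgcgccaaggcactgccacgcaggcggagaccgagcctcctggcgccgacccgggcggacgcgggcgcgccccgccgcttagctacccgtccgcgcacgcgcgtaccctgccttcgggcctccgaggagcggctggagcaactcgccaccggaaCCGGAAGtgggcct
Arf3 (chr15:98762973-98763172, minus strand): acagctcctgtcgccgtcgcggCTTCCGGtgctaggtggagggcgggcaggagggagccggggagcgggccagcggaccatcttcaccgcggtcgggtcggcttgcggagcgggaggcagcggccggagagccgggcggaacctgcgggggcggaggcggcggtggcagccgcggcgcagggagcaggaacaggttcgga

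The authors' deposited gene ontology table drew on a list of 4944 genes. Of those compared here and named in it, all 4116 had more FPKM in the deficient library, with a lowest difference of 0.59, close to 1.5-fold in FPKM + 1. Of the 61 transport genes compared, 36 (59.0%) were named in at least one term of that table, against 45.6% of all genes compared. At a limit of 1.5-fold, 38 of the 61 genes were higher, against 53.7% of all genes, and 3 were lower, against 3.68%. In the authors' deposited table, Golgi vesicle transport held 98 listed genes of 185, with an enrichment of 2.50-fold and a false discovery rate of 3.41e-21, and 23 of the 98 are transport genes described here. ER to Golgi vesicle-mediated transport held 37 of 64, 2.73-fold, and COPII-coated vesicle budding 6 of 10, 2.83-fold with a false discovery rate of 0.0224. The background population in the authors' deposited table is 23313 genes, more than the 10403 with FPKM values. The list also came from these same 2 libraries, so the enrichments are not separate evidence about the transport genes. Ykt6, Arf3, Tmed2, Copz1 and Sec16a are in none of the terms. Their absence follows from the list, because every gene compared and named there had more FPKM in the deficient library.

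Other genes of the route, outside the symbols chosen, were followed in 6 lists. Of 15 further cargo receptors, 8 were higher (53.3%, against 14.8% of all genes), 1 was lower (6.67%, against 2.17%) and 6 were within 2-fold. Their median was 1.05, or 0.35 against the median gene. On the latter scale 2 were higher and 1 was lower, where 2.45% and 4.77% of all genes were. Ergic1, a protein of the intermediate compartment, was at 0.603 and 5.40 FPKM, and Kdelr1, a receptor that returns KDEL proteins to the endoplasmic reticulum, at 4.20 and 18.6 FPKM, 4.43-fold more. Both were past 2-fold against the median gene. Surf4, a receptor for soluble cargo, was at 27.1 and 64.5 FPKM. Mcfd2, the soluble partner of Lman1 in the transport of clotting factors, was the lower one, at 18.5 and 6.20 FPKM, 2.98-fold lower. Lman1 itself was at 3.95 and 7.09 FPKM, so Mcfd2 had 4.68 times its FPKM in the sufficient and 0.874 times in the deficient library.

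Of 9 exchange factors and GTPase-activating proteins, 3 were higher (33.3%, against 14.8% of all genes) and 0 lower (against 2.17%). Tbc1d20, an activator of GTP hydrolysis by Rab1, was at 3.35 and 19.9 FPKM, 5.94-fold more and 1.58 against the median gene, and Arfgap1 had the lowest difference, at 2.90 and 3.73 FPKM. Of 14 further SNAREs and fusion factors compared, 2 were higher (14.3%, near the 14.8% of all genes) and 1 was lower (7.14%, against 2.17%). Nsf, the ATPase that takes SNARE complexes apart, was at 1.05 and 4.57 FPKM, 4.34-fold more. Gosr2, a SNARE of the endoplasmic reticulum to Golgi step, was at 7.92 and 3.12 FPKM, 2.54-fold lower and -1.76 against the median gene. Ykt6 and Gosr2 were thus the SNARE genes of these lists past 2-fold lower.

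The lists of golgins and of exit site organisers lay near the bulk of genes, with medians of 0.65 and 0.70. Of 16 golgins and other tethers, 3 were higher (18.8%, against 14.8% of all genes) and 0 lower (against 2.17%). Golga5 had the highest difference, at 2.25 and 6.81 FPKM, and Gcc1 the lowest, at 2.36 and 1.41 FPKM. Gcc1 shares 313 exon bases with Arf5 on the opposite strand, and whether the authors' counting used strand is not given in the sources used here. None of the 4 exit site organisers was called, with differences from 0.48 for Klhl12, at 0.819 and 1.53 FPKM, to 0.93 for Tfg, at 5.99 and 12.3 FPKM. Of 8 transcription factors of secretory genes, 1 was higher (12.5%, near the 14.8% of all genes), namely Tfe3, at 1.05 and 3.62 FPKM. Xbp1 was at 10.6 and 19.3 FPKM and Atf6 at 3.86 and 6.20 FPKM, both within 2-fold, and Tfeb had the lowest difference, at 2.23 and 1.78 FPKM.

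**Figure D4:**
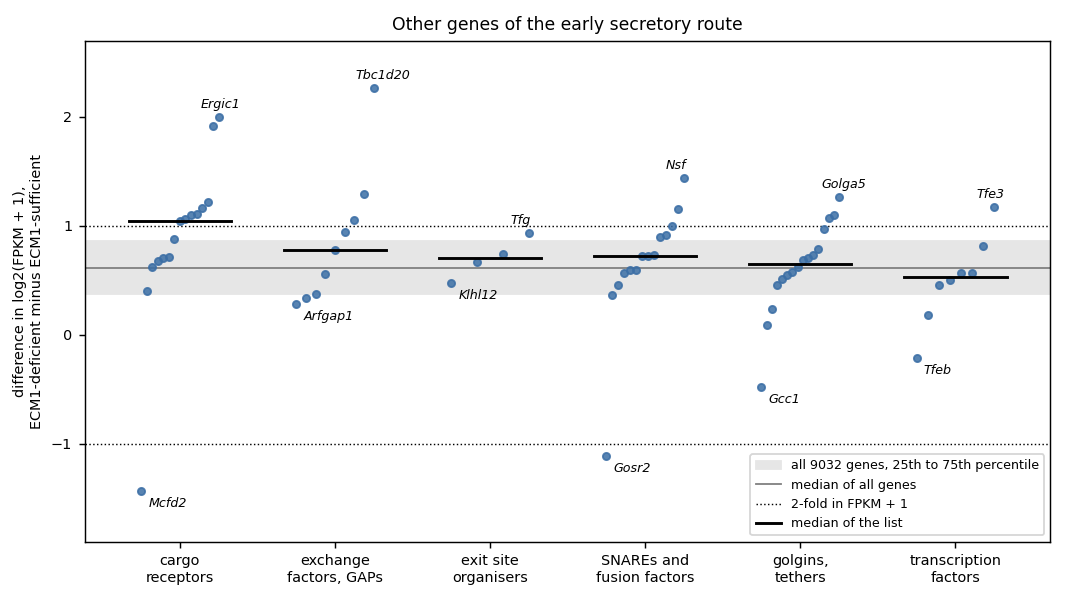
Difference in log2(FPKM + 1), deficient minus sufficient, of the genes of 6 lists around the same route, 1 point per gene, with the median of each list (black bars) and of all 9032 genes (grey line) and their 25th to 75th percentile (band). The cargo receptors have the highest median, 1.05, and Mcfd2 and Gosr2 lie below -1.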

How the data were processed

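RNA was sequenced in 1 ECM1-sufficient and 1 ECM1-deficient sample. Per the labels' protocol, RNA was enriched with oligo(dT) beads and libraries were strand-specific. The submitters' processing notes name HISAT2, StringTie 1.2.3 and mm9, but the coordinates in the table match GENCODE M21 on GRCm38, with identical start and end for 43 of the 62 genes, and are given as such. The authors deposited FPKM per gene and log2(FPKM + 1) of the same values, and per the file headers a log2 fold change, its linear ratio and p-values and q-values, all of which were 1. The deposited gene ontology table holds numbers (counts) of genes, a fold of enrichment, p-values, their -log10 score and a gene fraction. The table of arginine metabolism was not used. Genes whose higher FPKM was under about 0.500 are not in the table, read depth is unknown, and no counting interval is given.

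Rows of 1 symbol were summed, genes that reached 1 FPKM in either library were kept, and 1 was added before log2, which understates differences of weakly expressed genes. A fold given for a gene is its plain FPKM ratio. The median ratio used the 7329 genes that reached 1 FPKM in both. Shares use FPKM of one library. Exons and lengths are those of the longest protein-coding transcript in GENCODE M21. Near-identical copies were sought with blastn 2.17.0 (95% identity over at least 300 bases). Python 3.11.15 and pandas 2.3.3 were used, and the calculation was tested on simulated data. Named genes are all 62, with values by complex for extremes, the most abundant, those past 2-fold and paralogues, and from the other lists the extremes and those past 2-fold against the median gene. Members and lists were chosen with earlier results of these data known, and motifs, subgroups and the naming of Itgam, Fcgr1, Tyrobp, Lman1, Surf4, Xbp1 and Atf6 after the values were seen.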

Additional observations from a re-analysis of the deposited data

How the results depend on the processing

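With 1 library per genotype the limits are the scale and the added constant. The 9 higher transport genes (14.8%, as of all genes) became 18 with 0.1 added in place of 1, which is 29.5% of the 61 against 32.6% of all genes. They became 0 with 5 added, against 3.17% of all genes, 0 after division by the median ratio, against 2.45%, 0 with equal sums, against 4.22%, and 0 at 4-fold, against 1.21%. At 1.5-fold they were 38, or 62.3% against 53.7%. Among genes that reached 5 FPKM, 6 of 39 were higher, 15.4% against 22.4% of all such genes, a share below the background. The 3 lower genes became 0 at 4-fold, against 0.797% of all genes, and were 2 with 5 added, against 0.985%, where Tmed2 was at -0.99. They stayed 3 under the other alternatives. After division by the median ratio this was 4.92% against 4.77% of all genes, a share near the background. It was 4.92% against 3.28% with equal sums and 4.92% against 2.90% with 0.1 added. Among genes that reached 5 FPKM it was 7.69% against 2.72%, and with 3 or more exons 5.08% against 1.18%. The median of the transport genes minus that of all genes, 0.10, was 0.021 with 0.1 added, 0.11 with 5 added, 0.15 with no FPKM minimum, 0.012 at 5 FPKM or more, 0.011 after division by the median ratio and 0.043 with equal sums. It stayed above 0 in each of these and over genes with 3 or more exons. Ykt6, Arf3 and Tmed2 stayed below 0 in all 8 scales and filters. No paired analysis was possible because each genotype has 1 library, and for the same reason no library could be left out.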

Other observations

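Sec24a and Sar1b, both COPII genes, are neighbours on chromosome 11 that start 53 bases apart and run in opposite directions, per the coordinates in the table. Their levels differed widely, at 0.747 and 34.7 FPKM in the sufficient library and 1.47 and 60.1 FPKM in the deficient library. Their ratios between the libraries were 1.97 and 1.73.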
